A study of Mus musculus with 9 samples.

Results

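The platelet-derived growth factor (PDGF) genes Pdgfa, Pdgfb, Pdgfc and Pdgfd, which encode the ligands, and Pdgfra and Pdgfrb, which encode the receptors, were followed through obesity and weight loss (WL) in mouse epididymal adipose tissue (epiAT). Members were taken by symbol: all 6 were rows of the feature table of 32285 genes. Single-nucleus RNA sequencing counted unique molecular identifiers (UMIs, one per captured RNA molecule) in 9 libraries, each made from nuclei of 5 pooled mice. All mice were male C57BL/6J and carried no engineered allele by the labels. There was 1 library per diet group, so differences between mice of a group were not measured. The chow groups were collected at 18 (C), 26 (CC) and 39 weeks of age (CCC), although the series text calls the control a low fat diet, and the methods state that C received the low-fat diet and the older controls went on to standard chow. H received a high-fat diet (HFD; 60% of calories from fat) for 12 weeks and was collected at 18 weeks of age, and HH for 25 weeks and at 31 weeks. The WL groups HC and HHC had the same HFD periods followed by 8 weeks of chow and were 26 and 39 weeks old. CCH met HFD for the first time for 4 weeks after 26 weeks on chow, and HCH for a second time for 4 weeks after the HC regimen. Both were 30 weeks old.

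PDGF ligands are secreted dimers that bind receptor tyrosine kinases on mesenchymal cells. PDGF-A and PDGF-B are released active, whereas PDGF-C and PDGF-D carry a CUB domain that proteases such as tissue plasminogen activator, urokinase and matriptase remove before the factor can bind. PDGF-A and PDGF-C act mainly through receptor α, PDGF-D mainly through receptor β and PDGF-B through both. In adipose tissue, receptor α marks adipocyte progenitor cells, receptor β marks pericytes and some progenitors, endothelial PDGF-B holds pericytes on capillaries, and macrophage PDGF-C has been linked to fat storage.

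The matrices held 91687 barcodes and 408905640 UMIs, between 22599619 (CCC) and 66615262 (HHC) per library. Of these, 73196 nuclei passed the filters and 57630 were put in 1 of 12 classes by marker genes that included no PDGF gene. Classes are called "-like" because they rest on markers alone. At most 0.493% of the barcodes of a library pair were shared. Lymphocyte-like nuclei (T, NK and B cell-like pooled) served as a gauge of free RNA in droplets, since lymphocytes are not known as a main source of PDGF transcripts. CPM, the UMI count of a gene scaled to the UMI total of its class, below this gauge were read as not shown to exceed background. Median depth was 1125 to 1882.5 UMIs in T or NK cell-like and 1167.5 to 2013.5 in B cell-like nuclei. It was 2101 to 3472 in macrophage-like and 1873 to 3474 in progenitor-like nuclei. The same free RNA per droplet would thus give a higher CPM in the gauge. Because intronic reads counted and genes differ in length, CPM was compared between classes and libraries but not between genes. Intervals are 95% and cover counting error only. The libraries also came in 2 sequencing sets by their labels: C, H, HH, CCH and HCH in one, and CC, CCC, HC and HHC in the other.

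Kept nuclei held 77897 UMIs of Pdgfc, 40641 of Pdgfd, 26652 of Pdgfra, 13477 of Pdgfrb, 7600 of Pdgfb and 4067 of Pdgfa. In the GRCm38 build used for the counting, Pdgfa spans chromosome 5 from 138976014 to 138997370 on the minus strand and Pdgfra the same chromosome from 75152292 to 75198215 on the plus strand. Pdgfb lies on chromosome 15 from 79995874 to 80014977 on the minus strand. Pdgfc covers 81036416 to 81214040 of chromosome 3 and Pdgfd 6168584 to 6378850 of chromosome 9, both on the plus strand. The antisense gene Gm16000 (chromosome 3, 81037408 to 81040437, minus strand) overlaps the end of the first exon and the start of the first intron of Pdgfc. Whether strand was used in counting is not given in the sources used here, so Pdgfc and Gm16000 reads may not be fully separated.

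The 250 bases before the RefSeq start (GRCm38.p6, plus strand for both) are shown for Pdgfc and Pdgfd, the ligands with the most UMIs. Capitals mark the match found among the motifs searched on both strands, which were the TATA box TATAAA, the GC box GGGCGG, the CCAAT box and the AP-1 site TGANTCA.
Pdgfc, chr3:81036166-81036415: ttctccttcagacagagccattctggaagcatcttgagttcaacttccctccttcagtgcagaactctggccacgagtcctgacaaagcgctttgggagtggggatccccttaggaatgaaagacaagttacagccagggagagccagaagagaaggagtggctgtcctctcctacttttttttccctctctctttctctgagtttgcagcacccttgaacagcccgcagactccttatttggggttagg
Pdgfd, chr9:6168236-6168485: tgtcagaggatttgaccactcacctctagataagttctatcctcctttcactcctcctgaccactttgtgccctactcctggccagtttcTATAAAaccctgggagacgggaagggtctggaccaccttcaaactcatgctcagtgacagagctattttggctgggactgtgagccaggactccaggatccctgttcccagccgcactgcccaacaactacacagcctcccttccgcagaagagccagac
The Pdgfd window had 1 TATAAA, beginning 160 bases before the start, and no other match. The Pdgfc window had none of the 4 motifs. Among 32851 RefSeq windows of the same length, 12.4% held TATAAA, 32.7% GGGCGG, 33.8% CCAAT and 6.75% TGANTCA. GC content was 50.8% in the Pdgfc window and 53.6% in that of Pdgfd.

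The PDGF genes differed in the cell classes that led in their level. Pdgfc was highest in macrophage-like nuclei, with a lowest, median and highest CPM over the 9 libraries of 543, 935 and 1633, above each other class in 9 of 9 libraries and without overlap with the next class (epithelial-like, 77.3 to 356). Pdgfb led in blood endothelial-like nuclei (125, 171 and 302 CPM), again in 9 of 9 libraries and without overlap with the next class, the lymphatic endothelial-like nuclei (26.9 to 117). Pdgfra was the gene of progenitor-like nuclei (291, 429 and 702 CPM), and the next class, the mural-like nuclei, reached 105 CPM at most. Pdgfrb was highest in mural-like nuclei (pericytes and smooth muscle) at a median of 486 CPM, followed by progenitor-like nuclei at 175, but their ranges overlapped (83.7 to 926 and 59.6 to 345).

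The other ligands were spread more widely. Pdgfd had its highest median in blood endothelial-like nuclei (992 CPM, range 436 to 1680), ahead of mesothelial-like nuclei in 8 of 9 libraries (median 570, range 410 to 775), but the ranges overlapped. Mural-like (159 to 1667), progenitor-like (204 to 325) and lymphatic endothelial-like nuclei (182 to 314) followed. Pdgfa was low throughout: mural-like (29.7 to 109 CPM) and epithelial-like nuclei (9.50 to 104) led and overlapped each other and most classes. The marker list of the epithelial-like nuclei includes Adam7, a gene of the epididymis beside this fat pad.

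**Figure D1:**
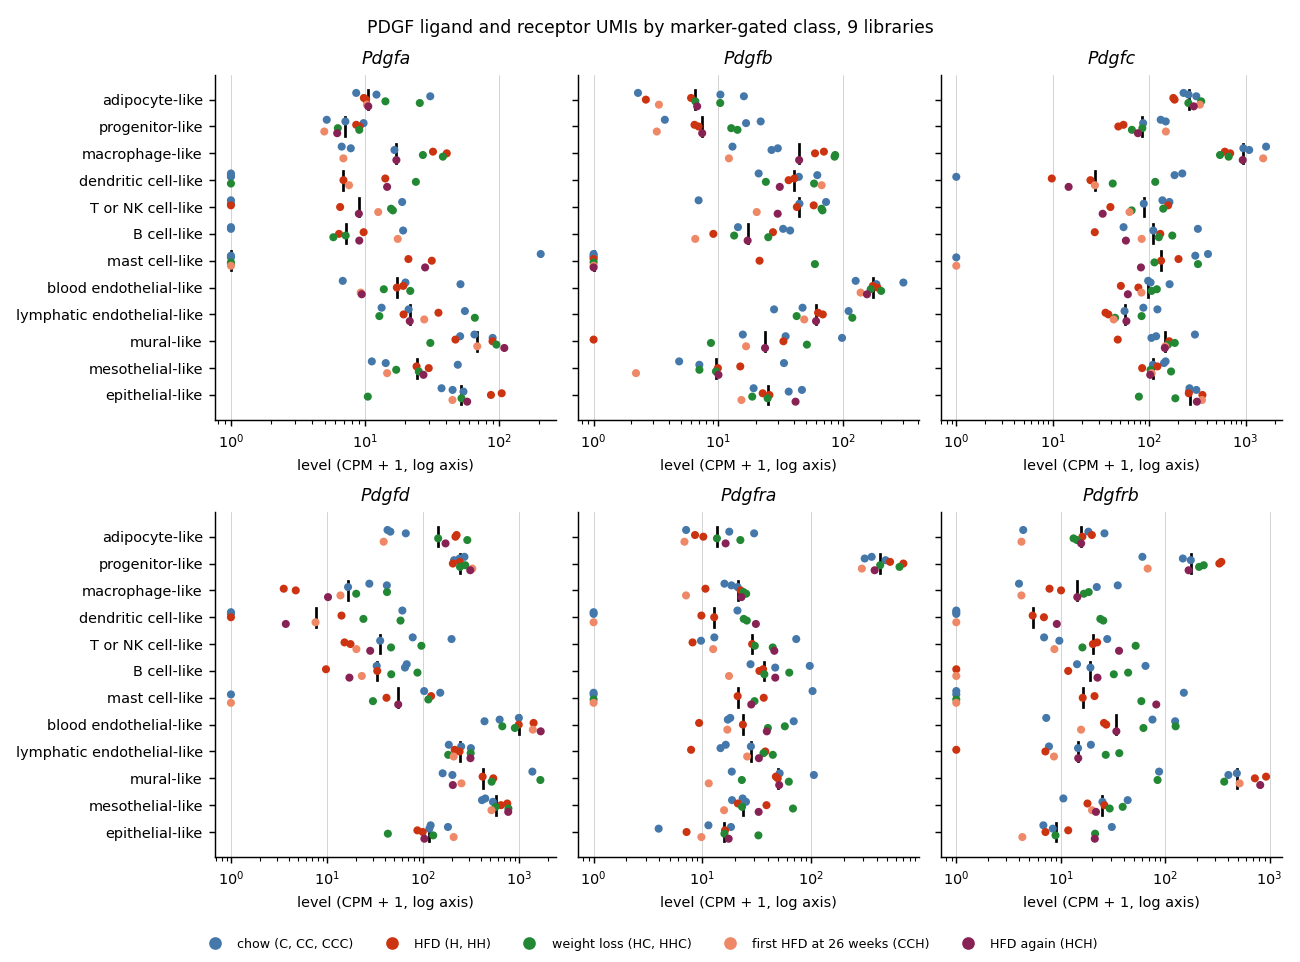
CPM (log axis) of each PDGF gene in the cell classes, 1 point per library, with the median over libraries. Pdgfc in macrophage-like nuclei (543 to 1633), Pdgfb in blood endothelial-like nuclei (125 to 302) and Pdgfra in progenitor-like nuclei (291 to 702) stand clear of the next class, whereas Pdgfd is high in several classes.

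Against the lymphocyte-like gauge, Pdgfc in macrophage-like, Pdgfb and Pdgfd in blood endothelial-like, Pdgfra and Pdgfrb in progenitor-like and Pdgfrb in mural-like nuclei were above it in 9 of 9 libraries. Pdgfd in macrophage-like nuclei was below it in 9 of 9, as were Pdgfb in adipocyte-like and Pdgfra in macrophage-like nuclei. Adipocyte-like nuclei exceeded it for Pdgfc in 9 of 9 libraries (177 to 346 CPM), for Pdgfd in 7 and for Pdgfra in 1.

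The share of a gene's UMIs that a class supplied depends on both its number of nuclei and its level per nucleus, which such a share cannot tell apart. Macrophage-like nuclei held 50.8%, 32.7% and 27.0% of the Pdgfc UMIs in C, CC and CCC, but 83.4% and 80.2% in H and HH, 46.6% and 73.7% in HC and HHC, and 72.1% and 78.0% in CCH and HCH. The shift was larger for the other macrophage ligands. Of Pdgfb UMIs, macrophage-like nuclei supplied 4.69 to 8.96% in the chow libraries and 68.6%, 60.5%, 44.9% and 58.3% in H, HH, HC and HHC, while the blood endothelial-like share was 56.6%, 37.6% and 21.4% on chow and 7.68% and 13.1% in H and HH. Of Pdgfa UMIs the macrophage-like share was 2.92 to 5.56% on chow, 66.5% in H and 65.0% in HH. Chow and HFD ranges did not overlap in any of these. These shares are over all kept nuclei, including those put in no class. Nuclei without a class held 29.6%, 37.6% and 51.5% of Pdgfa UMIs in C, CC and CCC, and 11.8% and 12.9% in H and HH. Their part of Pdgfb and Pdgfc UMIs was largest in CCC (46.3% and 29.3%). Macrophage-like nuclei numbered 374 to 1438 in the chow libraries and 4857 and 5043 in H and HH. Progenitor-like nuclei held most Pdgfra UMIs in every library (61.9 to 91.4%). Leaving nuclei with over 3000 detected genes in, many of which were adipocyte-like, brought the median macrophage-like share of Pdgfc from 72.1% to 42.9%.

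**Figure D2:**
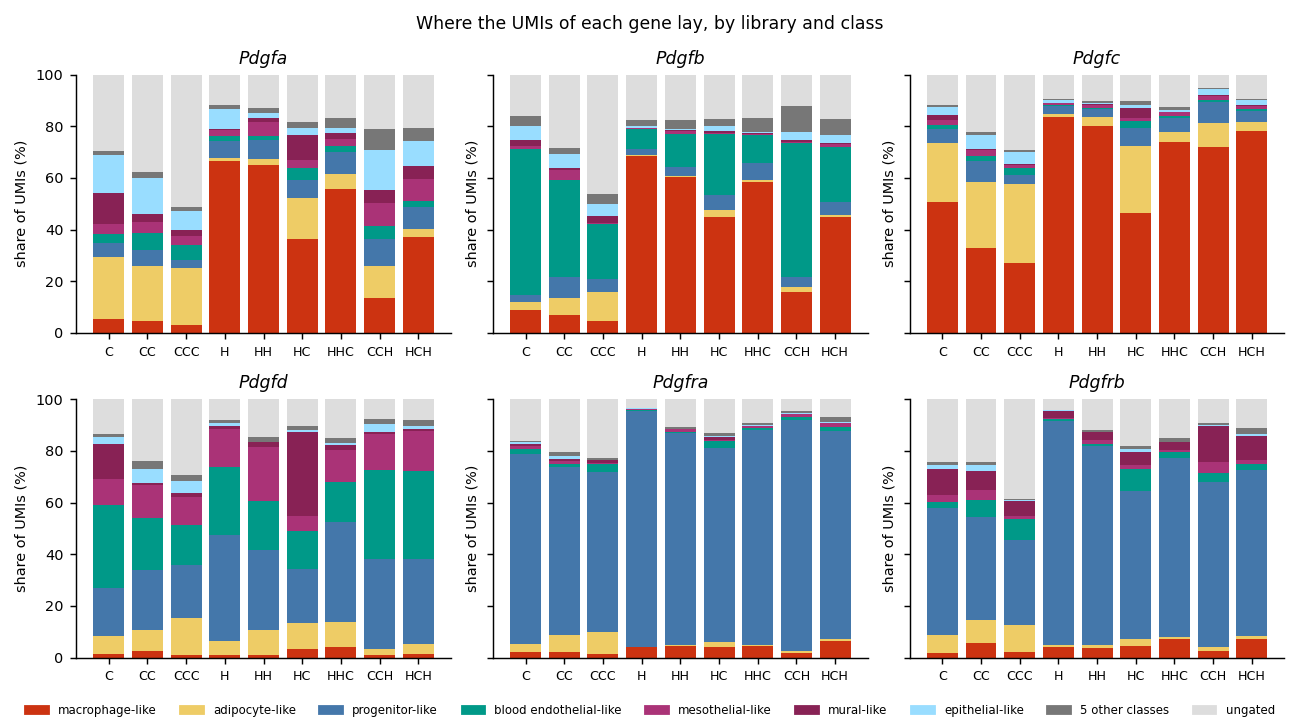
Share of each gene's UMIs in kept nuclei (percent) supplied by each class, 1 stacked bar per library. The macrophage-like share of Pdgfa and Pdgfb is 2.92 to 8.96% in the chow libraries and 60.5 to 68.6% in H and HH.

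The diet groups were compared as the study paired them: H with C, HH with CC, HC with CC, HHC with CCC and HCH with CCH. HH (31 weeks old) was older than CC (26 weeks old) and in the other sequencing set. CC had also gone on to standard chow, whereas C, the control of H, received the low-fat diet. With 1 library on each side there is no test of such a pair, and log2 ratios carry counting intervals only. To set differences against a spread between libraries, summed counts were also fitted across all genes with edgeR's quasi-likelihood test, taking C, CC and CCC as chow, H and HH as HFD and HC and HHC as WL, with Benjamini-Hochberg adjusted p. These libraries differ in age, diet length and sequencing set, and the chow libraries also in control diet, so diet state cannot be told apart from these fully. Both contrasts share the chow libraries, and CCH and HCH were left out as single libraries of their diet.

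In macrophage-like nuclei, Pdgfa and Pdgfb were higher and Pdgfc lower on HFD. Pdgfc was at 1633, 949 and 1091 CPM in C, CC and CCC, at 609 in H and 692 in HH, at 543 in HC and 667 in HHC, and at 1524 in CCH and 935 in HCH. All HFD and WL libraries lay below all chow libraries, and CCH lay within the chow range. The log2 ratio was −1.42 (−1.47 to −1.37) for H with C, −0.46 (−0.54 to −0.37) for HH with CC, −0.80 (−0.91 to −0.70) for HC with CC, −0.71 (−0.81 to −0.61) for HHC with CCC and −0.71 (−0.75 to −0.66) for HCH with CCH. In the HFD fit Pdgfc fell by 1.07 (log2, SE 0.27, edgeR adjusted p = 0.0174). Without H the adjusted p was 0.141, without HH 0.0934 and with Leiden cluster classes 0.0709. For WL the log2 change was −1.04 (SE 0.27), and the edgeR adjusted p of 0.0524 missed the 0.05 threshold.

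Pdgfa, the ligand of receptor α dimers, stood in macrophage-like nuclei at 5.70, 6.84 and 15.6 CPM in C, CC and CCC. It was at 31.2 and 39.8 in H and HH and 26.0 and 37.1 in HC and HHC, with 5.90 in CCH and 16.2 in HCH. HFD and WL libraries did not overlap chow. It rose by 1.94 (log2, SE 0.36, edgeR adjusted p = 0.00540) on HFD and by 1.90 (SE 0.37, adjusted p = 0.0161) in WL. The WL call was lost without C (adjusted p = 0.0672), without CC (0.0535), without HHC (0.0762) and with sequencing set as a term (0.0690), whereas the HFD call held in all 12 alternatives. The lymphocyte-like gauge of Pdgfa rested on 0 to 9 UMIs per library. The macrophage-like level lay above the interval of the gauge in H, HH, HHC and HCH and inside it in C (0 to 15.1 CPM), CC, CCC, HC and CCH, so that the chow levels were not shown to exceed background.

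Pdgfb, which encodes the ligand of both receptors, was higher in the same libraries. Its macrophage-like level was 12.0, 28.9 and 25.6 CPM in C, CC and CCC, 68.9 and 58.3 in H and HH, 85.0 and 84.1 in HC and HHC, and 11.1 and 43.3 in CCH and HCH. Both HFD and both WL libraries exceeded all chow libraries. It rose by 1.45 (log2, SE 0.33, edgeR adjusted p = 0.0111) on HFD, not called without H (adjusted p = 0.0695) and at 2.22 with sequencing set as a term (0.00957), and by 2.01 (SE 0.33, adjusted p = 0.00863) in WL, called in all 12 alternatives. The lymphocyte-like gauge of Pdgfb ranged from 8.21 to 63.0 CPM, and the macrophage-like level exceeded it in 6 of 9 libraries. It lay below the gauge in CC (63.0), CCC (40.1) and CCH (13.6). In C and H the macrophage-like level was above the gauge but inside its interval (0.995 to 29.7 and 21.6 to 77.3 CPM). The chow levels and that of H behind these changes were thus not shown to exceed background. For Pdgfb, T or NK cell-like nuclei alone were above the pooled gauge in 8 of 9 libraries and B cell-like nuclei in 1.

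Pdgfd passed the test in macrophage-like nuclei as well, falling by 3.32 (log2, SE 0.55, edgeR adjusted p = 0.00345), from 15.6 to 41.0 CPM on chow to 2.55 in H and 3.73 in HH. As these levels lay below the gauge in every library, they were not shown to exceed background. In the same nuclei, the summed adipocyte markers (9 of 9 detected) were at 4.90 to 22.2 per 10000 UMIs on chow and 1.02 to 1.78 on HFD. Blood endothelial markers (9 of 9) were at 1.39 to 4.13 and 0.32 to 0.52. Mural markers (at least 9 of 11) were at 0.80 to 1.91 and 0.15 to 0.25. Mesothelial markers (at least 7 of 8) were at 0.52 to 1.25 and 0.44 to 0.87. Progenitor markers (9 of 9) did not fall, at 4.32 to 8.91 and 8.29 to 12.2. The part of these cell types in the level was not tested. In all, 4 of 6 members passed in macrophage-like nuclei on HFD and 2 of 6 in WL, where 36.1% and 8.53% of all genes tested did.

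Kinds of macrophage differed in these ligands. Perivascular-like nuclei, which carried markers such as Lyve1 and Cd163, pooled to 2129 CPM of Pdgfc against 305 in lipid-associated-like nuclei, which carried markers such as Trem2 and Gpnmb. Pdgfc was higher in the perivascular-like nuclei in 8 of 8 libraries that held both (1554 to 2435 against 94.7 to 390). Pdgfa and Pdgfb were the other way round: in H, HH, HC, HHC and HCH, lipid-associated-like nuclei had 37.2 to 83.1 CPM of Pdgfa and 66.3 to 115 of Pdgfb. Perivascular-like nuclei of the same libraries had 3.37 to 17.0 and 3.37 to 14.9. C, CCC and CCH held 6, 13 and 9 lipid-associated-like nuclei and CC 0, too few to set a direction.

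The makeup of the macrophage-like class moved with diet. Perivascular-like nuclei were 47.6%, 30.8% and 30.7% of macrophage-like nuclei in C, CC and CCC, 6.84% and 4.88% in H and HH, 4.16% and 4.55% in HC and HHC, and 48.8% and 21.0% in CCH and HCH. Lipid-associated-like nuclei were 0 to 3.48% on chow, 32.3% and 23.5% in H and HH, 26.2% and 49.5% in HC and HHC, and 0.526% and 12.7% in CCH and HCH. The summed macrophage markers (12 of 12 detected), a list that includes Gpnmb, also differed in this class. They were at 39.2 to 56.8 per 10000 UMIs on chow, 98.3 to 105 on HFD and 74.1 to 112 in WL. In CCH and HCH they were at 49.8 and 80.3. The part of the makeup or of this marker difference in the Pdgfa and Pdgfb levels was not tested.

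Within perivascular-like nuclei alone, the Pdgfc ratio was 0.094 (0.02 to 0.17) for H with C, 0.65 (0.51 to 0.78) for HH with CC, 0.28 (0.07 to 0.48) for HC with CC, −0.20 (−0.36 to −0.05) for HHC with CCC and 0.17 (0.12 to 0.22) for HCH with CCH. Thus in 4 of 5 pairs it lay above 0, opposite to the whole macrophage-like class.

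**Figure D3:**
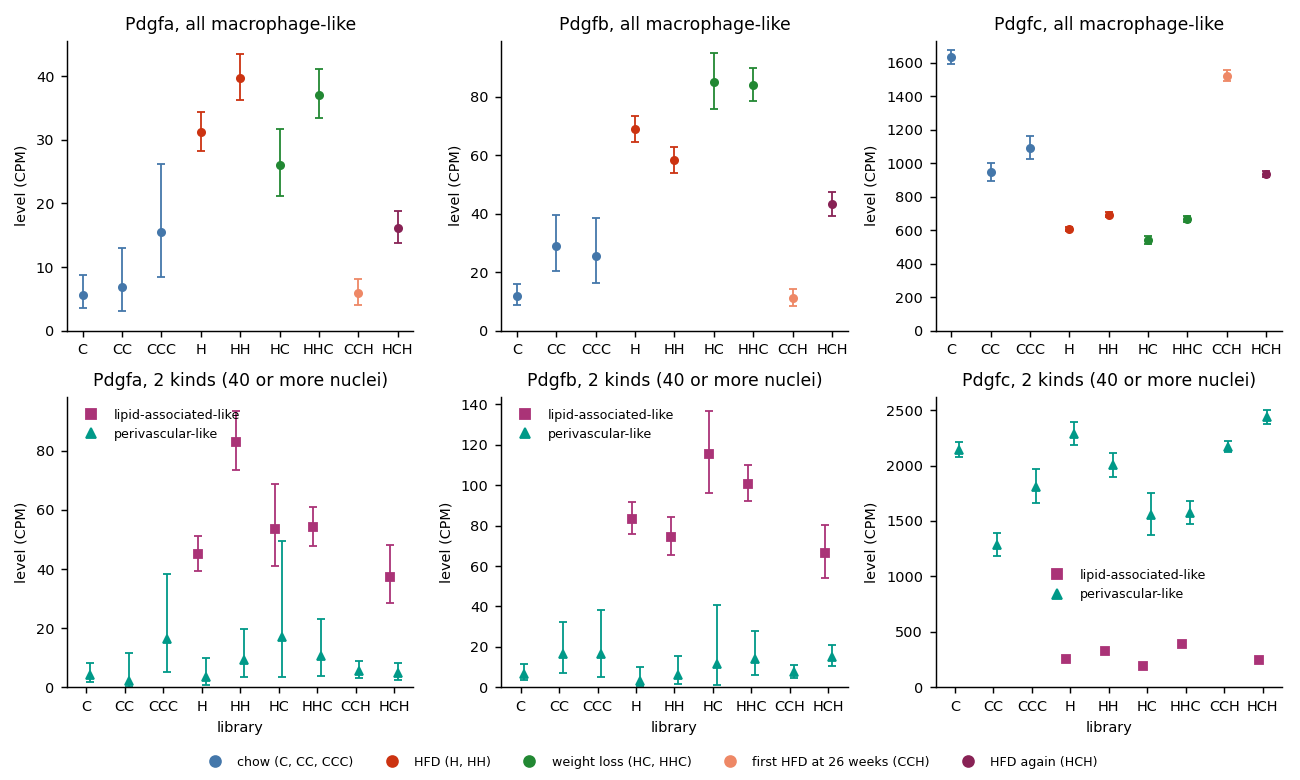
CPM of Pdgfc, Pdgfa and Pdgfb in macrophage-like nuclei of each library and by kind, with exact Poisson intervals. Pdgfc is at 949 to 1633 in the chow libraries and 543 to 692 in H, HH, HC and HHC, and Pdgfa and Pdgfb have the opposite order.

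Thinned to 1000 UMIs per nucleus, which left out 902 shallower macrophage-like nuclei, 67.1%, 51.1% and 49.6% of them held a Pdgfc UMI in C, CC and CCC, 34.2% and 38.7% in H and HH, 31.6% and 38.3% in HC and HHC, and 59.0% and 40.2% in CCH and HCH. Unthinned shares ran from 49.2 to 77.3%. In T or NK cell-like nuclei the thinned share was 2.34 to 12.3% (unthinned 3.38 to 31.4%).

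Pdgfd, a receptor β ligand, was higher in adipocyte-like nuclei of every library with a long HFD period, WL included. It was at 41.7 (38.1 to 45.6), 44.7 and 65.2 CPM in C, CC and CCC and at 37.9 in CCH. It was at 223 (191 to 258) and 217 in H and HH, 143 and 288 in HC and HHC, and 171 in HCH. Thus each library with 12 or 25 weeks of HFD behind it lay above all 4 without, including the one with 4 weeks of HFD. This also held within each sequencing set.

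In pairs, the Pdgfd log2 ratio was 2.42 (2.16 to 2.67) for H with C, 2.28 (2.02 to 2.54) for HH with CC, 1.67 (1.42 to 1.94) for HC with CC, 2.14 (1.91 to 2.38) for HHC with CCC and 2.17 (1.86 to 2.48) for HCH with CCH. All 5 intervals lay above 0. In the HFD fit it rose by 1.95 (log2, SE 0.27, edgeR adjusted p = 0.00773), where 14.0% of 14026 genes passed and Pdgfd was 1 of 6 members to do so. Without H (adjusted p = 0.0590) or HH (0.0905) it was not called. In WL the log2 change was 2.08 (SE 0.27) with an edgeR adjusted p of 0.124. In that fit 0 of 14026 genes passed (0%), although 1361 had an unadjusted p under 0.05 and DESeq2 called 179, Pdgfd among them (adjusted p = 3.81e-07). Over the 12 alternatives the WL adjusted p ranged from 1.57e-08 to 0.538.

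Other cell types were checked in the same nuclei. The gauge of Pdgfd was 73.9 and 161 CPM in C and CC, above their adipocyte-like level, and 11.8 and 24.6 in H and HH, 90.5 and 45.6 in HC and HHC, and 23.1 in HCH, below it. In CCC and CCH the gauge was 49.0 (24.5 to 87.7) and 20.4 (9.33 to 38.7) CPM. Their adipocyte-like levels of 65.2 and 37.9 were above it but inside its interval. The levels of C, CC, CCC and CCH were thus not shown to exceed background, and all pair ratios above rest on them. Per 10000 UMIs of adipocyte-like nuclei, blood endothelial markers (9 of 9 detected) were at 0.80 to 2.58 on chow and 0.43 to 0.71 on HFD, mesothelial markers at 0.74 to 1.08 (8 of 8) and 0.25 to 0.45 (6 to 8 of 8) and progenitor markers (9 of 9) at 14.4 to 15.5 and 10.8 to 12.3. In WL these were at 1.35 to 1.81 (9 of 9), 0.41 to 0.44 (7 or 8 of 8) and 11.7 to 14.4 (9 of 9). Mural markers were at 0.55 to 1.78 on chow (at least 10 of 11 detected), 0.93 to 0.99 on HFD (at least 3 of 11) and 1.13 to 2.42 in WL (11 of 11). Macrophage markers (12 of 12) moved with Pdgfd, at 0.99 to 2.91 on chow, 9.11 to 9.23 on HFD and 4.63 to 16.3 in WL. In CCH and HCH, progenitor markers (9 of 9) were at 13.7 and 21.3 and macrophage markers (12 of 12) at 1.63 and 8.95. Blood endothelial markers (9 of 9) were at 0.95 and 1.16 there. Mural markers (9 and 10 of 11) were at 0.47 and 0.86 and mesothelial markers (8 and 7 of 8) at 0.87 and 0.72. Macrophage-like nuclei held 2.55 to 41.2 CPM of Pdgfd and progenitor-like nuclei 204 to 325. The part of other cell types in the Pdgfd level was not tested. Adipocyte-like nuclei numbered 185 in H and 355 to 2404 elsewhere, of which 1.62 to 16.3% lay near the gate (−log10 p under 4 or under 2.5 times that of the next class).

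The share of thinned adipocyte-like nuclei with a Pdgfd UMI also separated these libraries: it was 4.58%, 3.66% and 5.97% in C, CC and CCC, 3.35% in CCH, 20.6% and 17.7% in H and HH, 12.0% and 22.2% in HC and HHC, and 13.7% in HCH. Unthinned it was 12.5 to 47.1%. The thinned share in T or NK cell-like nuclei was 0.585 to 13.7%.

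Pdgfc, by contrast, had adipocyte-like levels of 227, 256 and 308 CPM in C, CC and CCC, 177 and 183 in H and HH, 346 and 254 in HC and HHC, and 335 and 289 in CCH and HCH. H and HH were lowest, below all chow libraries, and the log2 change of −0.72 (SE 0.26, edgeR adjusted p = 0.0918) did not pass the test. The WL libraries spread over and above the chow range.

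In mesothelial-like nuclei, which line the fat pad, Pdgfd was at 444, 410 and 534 CPM in C, CC and CCC, 753 and 648 in H and HH, 570 and 775 in HC and HHC, and 515 and 771 in CCH and HCH. All HFD and WL libraries lay above chow. Progenitor markers (9 of 9 detected) in these nuclei were at 29.8 to 35.4 per 10000 UMIs on chow, 50.6 to 52.3 on HFD and 28.3 to 32.1 in WL. Macrophage markers were at 2.23 to 3.02 (at least 10 of 12 detected), 14.8 to 16.4 and 7.91 to 20.5 (12 of 12 in both). In CCH and HCH, progenitor markers (9 of 9) were at 35.0 and 58.5 and macrophage markers (11 and 12 of 12) at 3.06 and 12.4. The part of these cell types in the level was not tested. The log2 ratios of the 5 pairs were 0.76, 0.66, 0.47, 0.54 and 0.58 in the order above, each with an interval above 0. The fitted log2 change of 0.53 (SE 0.19, edgeR adjusted p = 0.127) did not pass, nor did that of WL (0.58, SE 0.19, adjusted p = 0.329). Of the 5 members tested there 0 passed in either contrast by edgeR or DESeq2, where 7.17% of genes passed by edgeR on HFD and 0.500% in WL. At an unadjusted edgeR p under 0.05 stood Pdgfd in both contrasts and Pdgfra in WL.

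In blood endothelial-like nuclei, Pdgfd was at 995, 627 and 436 CPM in C, CC and CCC, 1417 and 992 in H and HH, 668 and 904 in HC and HHC, and 1391 and 1680 in CCH and HCH. The sequencing sets stood apart here: the 5 libraries of one held 992 to 1680 and the 4 of the other 436 to 904. Ratios were 0.51 (0.39 to 0.62) for H with C, 0.66 (0.49 to 0.84) for HH with CC, 0.09 (−0.08 to 0.27) for HC with CC, 1.05 (0.84 to 1.27) for HHC with CCC and 0.27 (0.19 to 0.36) for HCH with CCH. HH set against C, of its own sequencing set, gave −0.0043. The fit gave a log2 change of 0.71 (SE 0.39, edgeR adjusted p = 0.384), and over the 12 alternatives it ran from 0.20 (sequencing set as a term, adjusted p = 0.796) to 1.08 (without C, adjusted p = 0.0389), the 1 alternative that passed. In these nuclei, macrophage markers were at 2.07 to 5.14 per 10000 UMIs on chow (at least 9 of 12 detected). They were at 23.8 to 26.3 on HFD and 9.98 to 28.7 in WL (12 of 12 in both). Adipocyte markers (9 of 9) were at 5.98 to 28.7 on chow, 2.51 to 3.36 on HFD and 9.30 to 10.3 in WL. Mural markers (at least 9 of 11) were at 1.53 to 12.3, 0.87 to 1.47 and 3.64 to 8.46. Progenitor markers (9 of 9) were at 8.63 to 18.8, 16.4 to 20.5 and 13.6 to 14.7. Mesothelial markers (at least 7 of 8) were at 1.48 to 3.71, 1.96 to 3.22 and 2.46 to 3.57. In CCH and HCH, macrophage markers (12 of 12) were at 2.72 and 18.6 and progenitor markers (9 of 9) at 8.95 and 27.0. Adipocyte markers (9 of 9) were at 6.46 and 7.47 there, and mural markers (10 and 11 of 11) at 1.61 and 2.82. Mesothelial markers (8 of 8) were at 4.54 and 2.80. The part of these cell types in the level was not tested.

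Pdgfb, the endothelial ligand, was at 125, 302 and 183 CPM in blood endothelial-like nuclei of C, CC and CCC, 171 and 187 in H and HH, 165 and 200 in HC and HHC, and 137 and 154 in CCH and HCH. CC was highest and the diets overlapped. H exceeded C by a log2 ratio of 0.46 (0.12 to 0.79), while HH was below CC by −0.69 (−1.01 to −0.38) and HC by −0.87 (−1.18 to −0.57). HH set against C, of its own sequencing set, gave 0.58. HHC with CCC (0.13) and HCH with CCH (0.17) had intervals that held 0. Of the 6 members in these nuclei, 0 passed the edgeR or the DESeq2 test in either contrast, where by edgeR 5.53% of genes did on HFD and 0.0758% in WL. Pdgfc was the 1 member at an unadjusted edgeR p under 0.05, with a log2 change of −0.99 on HFD (SE 0.32, adjusted p = 0.119).

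Progenitor-like nuclei carried both receptors, and Pdgfrb was higher on HFD. Pdgfrb was at 59.6, 147 and 175 CPM in C, CC and CCC, 345 and 330 in H and HH, 233 and 211 in HC and HHC, and 67.1 and 167 in CCH and HCH. HFD and WL libraries lay above all chow libraries, while CCH was close to C. Both C and CCH (59.6 and 67.1) are in one sequencing set, and CC and CCC (147 and 175) are in the other. The log2 ratio was 2.53 (2.35 to 2.72) for H with C, 1.17 (0.99 to 1.34) for HH with CC, 0.67 (0.48 to 0.86) for HC with CC, 0.27 (0.08 to 0.46) for HHC with CCC and 1.32 (1.16 to 1.47) for HCH with CCH. Pdgfrb rose by 1.21 (log2, SE 0.35, edgeR adjusted p = 0.0460) on HFD, and by 2.22 with sequencing set as a term (adjusted p = 0.0249). The call was lost without CC (adjusted p = 0.0781), CCC (0.0511), H (0.172) or HH (0.176) and with Leiden cluster classes (0.0512). In WL the log2 change was 0.78 (SE 0.35, adjusted p = 0.367).

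Pdgfra was at 358, 309 and 481 CPM in C, CC and CCC, 529 and 702 in H and HH, 429 and 646 in HC and HHC, and 291 and 381 in CCH and HCH. H and HH were above all chow libraries, and HC lay within the chow range. All 5 pair intervals lay above 0: the log2 ratio was 0.56 (0.48 to 0.65) for H with C, 1.18 (1.06 to 1.30) for HH with CC, 0.47 (0.34 to 0.61) for HC with CC, 0.43 (0.32 to 0.54) for HHC with CCC and 0.39 (0.31 to 0.47) for HCH with CCH. The fitted log2 changes of 0.47 (SE 0.23, edgeR adjusted p = 0.180) on HFD and 0.42 (SE 0.23, adjusted p = 0.468) in WL did not pass.

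Pdgfc in progenitor-like nuclei was at 131, 148 and 85.7 CPM in C, CC and CCC, 53.2 and 46.9 in H and HH, 84.1 and 65.3 in HC and HHC, and 148 and 75.5 in CCH and HCH. HFD and WL libraries lay below chow, although HC was only just below CCC. It fell by 1.52 (log2, SE 0.30, edgeR adjusted p = 0.0158), a call lost without H (adjusted p = 0.0878), without HH (0.126) and with sequencing set as a term (0.0558). The level exceeded the lymphocyte-like gauge in C, CCH and HCH of the 9 libraries. It lay below the gauge in H, HH, CC and CCC (gauge 98.2, 84.7, 196 and 98.0 CPM). Most levels behind this call were thus not shown to exceed background. With it, 2 of 6 members passed in progenitor-like nuclei on HFD and 0 in WL, where 16.3% and 1.00% of genes did. In WL, Pdgfc was the 1 member at an unadjusted p under 0.05 (log2 change −0.77, adjusted p = 0.273), and DESeq2 called 0. In these nuclei, 12 of 12 macrophage markers were detected. They were at 1.64 to 2.23 per 10000 UMIs on chow, 15.3 to 18.5 on HFD and 7.66 to 22.2 in WL. Mural markers (at least 10 of 11) were at 1.19 to 2.34, 0.96 to 1.38 and 1.63 to 3.92. Adipocyte markers (9 of 9) were at 4.64 to 22.5, 1.18 to 2.13 and 4.45 to 4.77. In CCH and HCH, macrophage markers (12 of 12) were at 1.95 and 12.5. Mural markers (11 of 11) were at 0.67 and 1.01 there, and adipocyte markers (9 of 9) at 3.70 and 3.49. Macrophage-like nuclei held 6.82 to 9.07 CPM of Pdgfrb on HFD. The part of other cell types in these values was not tested.

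**Figure D4:**
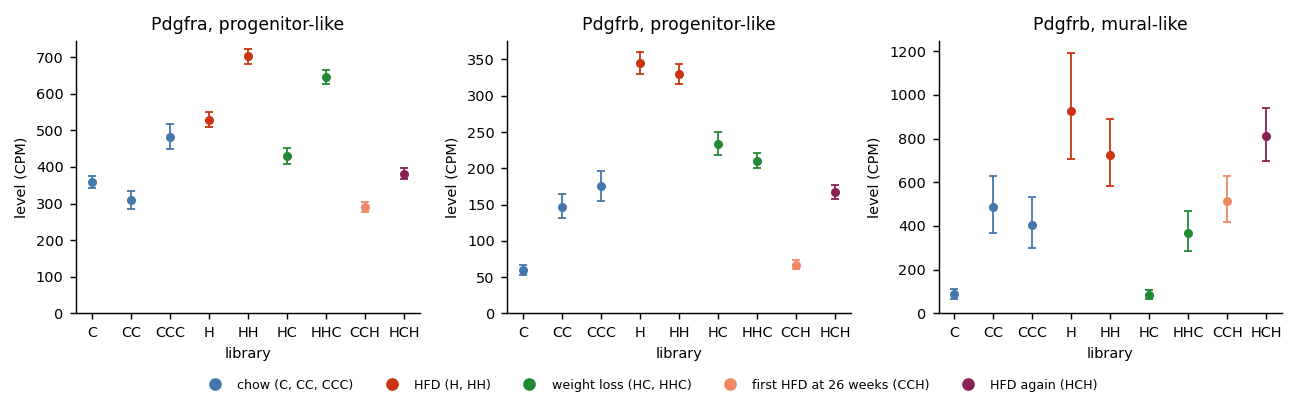
CPM of Pdgfra and Pdgfrb in progenitor-like and mural-like nuclei of each library, with exact Poisson intervals. Pdgfrb in progenitor-like nuclei is at 59.6 to 175 in the chow libraries and 330 to 345 in H and HH.

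Kinds of progenitor differed in the receptors. Committed-like nuclei (markers such as Col15a1 and Icam1) had more Pdgfra than fibro-inflammatory-like nuclei (Dpp4, Pi16) in 9 of 9 libraries, at 431 against 262 CPM pooled, and more Pdgfrb in 9 of 9, at 193 against 46.3. Pdgfc was higher in the fibro-inflammatory-like nuclei in 7 of 9 (201 against 77.8 CPM). Committed-like nuclei were 2.35 to 9.49% of the class. Within them the Pdgfrb ratio was 2.29 (1.67 to 2.96) for H with C and 1.14 (0.38 to 1.95) for HH with CC. Their Pdgfra ratios were 0.08 (−0.33 to 0.49) and 0.05 (−0.43 to 0.54), with intervals that held 0. Fibro-inflammatory-like nuclei had Pdgfra ratios of 0.63 (0.35 to 0.91) and 1.03 (0.56 to 1.54) and Pdgfrb ratios of 2.04 (1.31 to 2.83) and −0.28 (−1.02 to 0.51). For HC with CC, Pdgfra was at −0.40 (−0.93 to 0.13) in committed-like and −0.13 (−1.04 to 0.72) in fibro-inflammatory-like nuclei, and Pdgfrb at 0.37 (−0.48 to 1.25) and −1.25 (−3.25 to 0.32). These intervals held 0, whereas those of the whole class lay above 0. Their share of progenitor-like nuclei was 15.2%, 7.61% and 11.4% in C, CC and CCC, 12.9% and 9.71% in H and HH, 2.14% and 4.62% in HC and HHC, and 33.8% and 14.2% in CCH and HCH.

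Of all 15424 progenitor-like nuclei, 60.5% held a Pdgfra UMI, 33.9% a Pdgfrb UMI and 23.0% both. Per library the share with both was 8.06%, 16.1% and 19.6% in C, CC and CCC, 31.4% and 27.0% in H and HH, 28.1% and 33.9% in HC and HHC, and 10.2% and 22.7% in CCH and HCH. H, HH, HC and HHC were above all chow libraries. In T or NK cell-like nuclei, 0.289% held both. Thinned to 1000 UMIs, 21.2 to 44.7% of progenitor-like nuclei held Pdgfra and 5.79 to 26.2% Pdgfrb, against 0 to 6.56% and 0 to 6.15% of T or NK cell-like nuclei.

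The remaining ligand of these nuclei, Pdgfd, stayed between 204 and 325 CPM in progenitor-like nuclei of all 9 libraries. Chow (210 to 269), HFD (204 and 240) and WL (242 and 274) overlapped. Fitted log2 changes were −0.34 (SE 0.22) on HFD and 0.04 (SE 0.22) in WL, with edgeR adjusted p of 0.303 and 0.957.

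Mural-like nuclei were few, 27 (H) to 255 (C) per library and 901 in all. In CC, CCC and HHC 23.8%, 26.4% and 20.6% of them lay near the gate and 45.2%, 30.0% and 0% had the same name by Leiden clusters, against 3.13 to 5.49% and at least 80.7% elsewhere. Pdgfrb, the pericyte receptor, was at 86.6, 486 and 403 CPM in C, CC and CCC, 926 and 723 in H and HH, 83.7 and 367 in HC and HHC, and 516 and 814 in CCH and HCH. Pdgfd had the reverse order at its ends, with 1376 CPM in C and 1667 in HC and 159 to 538 in the other 7 libraries. C and HC stood apart in both.

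These libraries also differed in kinds of mural-like nuclei. Those with smooth muscle markers (Myh11, Acta2) numbered 96 of 255 in C and 174 of 238 in HC, but 2 to 13 in each other library. Pdgfd was higher in smooth muscle-like (132 to 1874 CPM) than in pericyte-like nuclei (0 to 304) in 8 of 9 libraries. Pdgfrb was higher in pericyte-like (0 to 1458 CPM) than in smooth muscle-like nuclei (25.7 to 868) in 8 of 9. Pericyte-like nuclei numbered 3 to 19 per library. Of the 4 members tested in mural-like nuclei 0 passed in either contrast (0% of 3924 genes in both; 367 genes on HFD and 104 in WL had an unadjusted p under 0.05, no member among them, and DESeq2 called 59 and 10, no member among them).

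Of 26 other genes of the pathway, 5 rose and 6 fell in macrophage-like nuclei on HFD, where 36.1% of all genes passed. Among the genes of activation, binding and uptake, Lrp1, a co-receptor that takes up ligands and proteases, rose by 1.04 (log2, edgeR adjusted p = 0.0163), from 200 to 408 CPM on chow to 657 in H and 594 in HH. Plau, the urokinase that can activate PDGF-D, rose by 1.07 (adjusted p = 0.0205), and Plaur, its receptor, by 1.09 (0.0416).

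Among signalling genes of macrophage-like nuclei, the adaptor Nck2 and the Ras regulator Rasa1 rose (log2 0.85 and 1.32), while phospholipase Plcg1 (−1.40), the adaptor Gab1 (−0.97), the phosphatase Ptpn11 (−0.72), the phosphoinositide kinase subunit Pik3r1 (−1.04) and Stat3 (−0.95) fell. The dampening phosphatase Ptprj fell as well (−1.06, edgeR adjusted p = 0.00592). Of these calls, with those of Lrp1, Plau and Plaur, that of Rasa1 held when any 1 library was left out. All others were lost without H, with adjusted p from 0.0575 (Stat3) to 0.247 (Nck2). With sequencing set as a term 3 genes were called higher (Lrp1, Rasa1 and, not called before, Sparc) and 3 lower (Ptprj, Gab1 and Stat3). In WL, where 8.53% of all genes passed, Lrp1 (1.61), Plau (1.22), Nck2 (1.06) and Rasa1 (0.98) rose and 0 of 26 fell by edgeR, although 3 were lower at an unadjusted p under 0.05 and DESeq2 called the same number lower. The Lrp1 call held without any 1 library, whereas those of Plau, Nck2 and Rasa1 were lost without HC (adjusted p = 0.107, 0.164 and 0.0889) and without several of the others.

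In progenitor-like nuclei, where 16.3% of all genes passed, 2 of 25 pathway genes rose on HFD and 0 fell by edgeR (4 were lower at an unadjusted p under 0.05, and DESeq2 called 2 lower). Plaur rose by 1.76 (log2, edgeR adjusted p = 0.0123), from 4.25 to 5.23 CPM on chow to 19.2 in H and 19.8 in HH, and Sparc, a matrix protein that binds PDGF-B, by 0.97 (adjusted p = 0.0334). Both calls were lost without H (adjusted p = 0.0724 and 0.151) or HH (0.0844 and 0.167), and that of Sparc without CC (0.0739). With sequencing set as a term that of Plaur was lost (0.0693) and Ptprj was called lower (log2 change −1.15, adjusted p = 0.0487). All shares of genes passing in this paragraph belong to the fits with all 7 libraries and without that term. Calls under the alternatives have no such share beside them. In adipocyte-like nuclei, where 14.0% of all genes passed, Plcg1 (−1.35) and the adaptor Grb2 (−0.79) fell among 26 and 0 rose (2 were higher at an unadjusted p under 0.05, and DESeq2 called 0 higher). Both were lost without CC (adjusted p = 0.0958 and 0.137), H (0.159 and 0.165) or HH (0.218 and 0.339) and with sequencing set as a term (0.0682 and 0.0843), where Pik3ca (−1.21, adjusted p = 0.0294), Pik3r1 (−2.14, 0.0250) and Nrp1 (−1.39, 0.0315) were called lower instead. The Grb2 call was also lost without CCC (0.0567), HC (0.0565) or HHC (0.0510). Pik3r1 fell by 1.46 (edgeR adjusted p = 0.0430) as the 1 call among 25 in blood endothelial-like nuclei, where 5.53% of all genes passed. That call was lost without CC (adjusted p = 0.127), H (0.323) or HH (0.313), with sequencing set as a term (0.0541) and with Leiden cluster classes (0.0539). With sequencing set as a term the 2 calls were instead higher, Lrp1 (log2 change 1.76, adjusted p = 0.0275) and Sparc (2.15, adjusted p = 0.00657). Nrp1, a co-receptor, fell by 1.20 (edgeR adjusted p = 0.0458) as the 1 call among 24 in mesothelial-like nuclei, where 7.17% of all genes passed. It was lost without C (adjusted p = 0.0654), CC (0.146), H (0.214) or HH (0.352) and with sequencing set as a term (0.179). The median log2 change of the pathway genes on HFD was −0.40 in adipocyte-like nuclei, where all genes tested had a median of −0.01. It was −0.20 in progenitor-like and −0.19 in macrophage-like nuclei, against −0.04 and 0.02 over all genes. These depended on single libraries: without C they were 0.04 and −0.02, without HH −0.09 in progenitor-like, and in macrophage-like nuclei −0.07 without CC, −0.10 without H, −0.13 without HC and −0.03 with Leiden cluster classes. In WL the other 5 classes had 0 calls among these genes by edgeR or DESeq2, and at an unadjusted edgeR p under 0.05 stood 1 in adipocyte-like, 3 in progenitor-like and 1 in mesothelial-like nuclei, all higher.

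The genes whose mean profile over the 12 classes was most like each member, among 14232 compared, are given as a description (Pearson r of log2(CPM + 1), all from the same libraries). Pdgfc was nearest to its antisense partner Gm16000 (r = 0.95), then Neurl2 (0.93) and Ntpcr (0.93). Pdgfb was nearest to Ankrd13a (0.90), Rnf220 (0.90) and Pkp4 (0.89), and Pdgfa to Gmpr (0.95), Mapt (0.92) and Pde8b (0.90). Pdgfd had Phactr1, Cdc42bpa and Hoxa9 (each 0.94). The receptors had Penk, Cilp and Pamr1 for Pdgfra (0.96, 0.96 and 0.95) and Nfatc4, Cygb and Galnt16 for Pdgfrb (0.97, 0.97 and 0.96).

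Counting every class and member with at least 20 UMIs in a pair, 17 of 41 ratios lay above 0 and 9 below for H with C, 11 and 18 of 45 for HH with CC, 11 and 11 of 45 for HC with CC, 11 and 9 of 48 for HHC with CCC and 21 and 6 of 50 for HCH with CCH, with intervals that held no 0. HH set against C, of its own sequencing set, gave 20 above and 9 below. The remaining intervals held 0. All of these intervals cover counting error only. The same count over all genes was not made, so these numbers are not a result about the members.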

How the data were processed

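The authors counted reads with Cell Ranger 6.1.2 on a mouse GRCm38 reference, introns included, and deposited raw UMI counts per gene and barcode. By the labels, nuclei of 5 mice were pooled per library and each group had 1 library. The authors' later filters, run with Seurat 4.1.0, were not in the matrices. Depth was 22599619 to 66615262 UMIs per library.

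From these counts, nuclei with 500 to 3000 genes and at most 40000 UMIs were kept, Scrublet doublets were removed (expected rate 0.8% per 1000 nuclei, with the top-scoring nuclei at that rate removed where the automatic threshold marked too few), and mitochondrial genes and Malat1 (14 genes) were left out. A nucleus took a class when its marker UMIs exceeded the level expected from nuclei of the other classes of its library (Poisson p under 0.001). That level was taken as free RNA, although it includes any true expression in those classes. At least 2 distinct markers also had to be present, and −log10 p had to be at least 2 times that of the next class. Leiden clusters per library (scanpy 1.11.5, leidenalg 0.10.2), named from the same markers, were the alternative. CPM carry exact Poisson, ratios exact conditional and shares Clopper-Pearson intervals, and a ratio needed 20 UMIs in the pair. edgeR 4.0.16 fits (R 4.3.3, filterByExpr, TMM, 7 libraries) were tested on simulated data, and DESeq2 1.42.0 was an alternative. Both treat libraries of a diet state as replicates, and whether their spread is technical cannot be told. The named genes were the 6 members, 26 pathway genes and the 3 most similar genes per member. Members, lists and tests were chosen with earlier results of these data known.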

Additional observations from a re-analysis of the deposited data

Results flagged for a closer look

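Pdgfb in blood endothelial-like nuclei lay on opposite sides of 0 in the pairs of the shorter and the longer high-fat diet. The log2 ratio of H with C was 0.46 (0.12 to 0.79), from 171 against 125 CPM, and that of HH with CC was −0.69 (−1.01 to −0.38), from 187 against 302 CPM. Each side is 1 library, so the difference between the pairs was not tested. CC held the highest Pdgfb level of the 9 libraries in these nuclei and also the highest lymphocyte-like gauge of Pdgfb (63.0 CPM). HH set against C instead gave 0.58.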

How the results depend on the processing

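In the diet-state fits, 164 of the log2 changes of single members under an alternative kept direction and side of the threshold, 10 passed only under the alternative and 18 only without it, and none of these turned. Members called on HFD numbered 1 in adipocyte-like nuclei (2 with sequencing set as a term), 2 in progenitor-like (1 with sequencing set, 1 with Leiden classes, 3 with no filter on low counts), 4 in macrophage-like (5 with no filter, 3 with Leiden classes) and 0 in blood endothelial-like nuclei (1 with no filter on low counts). In WL they numbered 0 in adipocyte-like (1 each with DESeq2, no filter and Leiden classes), 0 in progenitor-like (1 with no filter) and 2 in macrophage-like nuclei (1 with sequencing set, 3 each with DESeq2, DESeq2 size factors and no filter). Leaving out 1 library at a time gave 0 to 3, 0 to 3, 2 to 5 and 0 to 3 on HFD in the order above, and 0 to 1 in adipocyte-like and 1 to 2 in macrophage-like nuclei in WL. Without C, 3 members were called in adipocyte-like, progenitor-like and blood endothelial-like nuclei, beside 2549 of 13273, 2213 of 15001 and 1367 of 10277 genes. For the other alternatives the share of all genes passing is not given here, so those member counts cannot be read against it. Mural-like nuclei could not be fitted with Leiden classes, since HHC had no such cluster.

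Under other settings, 173 ratios of pairs moved by less than the counting interval, 35 moved further and 2 turned: HH against C in place of CC gave 0.58 for Pdgfb and −0.0043 for Pdgfd in blood endothelial-like nuclei. It also gave 20 ratios above and 9 below 0, in place of 11 and 18. With no upper limit on detected genes 20 ratios of HC with CC lay below 0, in place of 11, and the macrophage-like share of Pdgfc was 42.9%. With Leiden classes 5 ratios of HHC with CCC (9 before) and 11 of HCH with CCH (6 before) lay below 0. No count over all genes was set beside these.

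Restricting classes to 1 kind was chosen after seeing the data. In perivascular-like nuclei, Pdgfc turned to 0.094 (H with C), 0.65 (HH with CC), 0.28 (HC with CC) and 0.17 (HCH with CCH), and Pdgfa to −0.23 (HCH with CCH). In lipid-associated-like nuclei Pdgfc turned to 0.29 (HHC with CCC) and 1.37 (HCH with CCH), Pdgfa to −0.35 and Pdgfb to −0.10 (both HCH with CCH). In progenitor-like nuclei with HC against CC, Pdgfra turned to −0.40 (committed-like) and −0.13 (fibro-inflammatory-like) and Pdgfrb to −1.25 (fibro-inflammatory-like), as did Pdgfrb to −0.28 for HH with CC. The cause was not tested. With a pseudocount of 10, 1 of 3 similar genes stayed for each of Pdgfb, Pdgfd and Pdgfra. Lipid-associated-like nuclei of CCH held 2 UMIs of Pdgfa, 3 of Pdgfb and 4 of Pdgfc, which limits those ratios. A fit blocked on the study's pairs of libraries was not run.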
